A study of Rattus norvegicus with 7 samples.

Results

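Binding sites that the nuclear receptors NR2F2 and RXRG share outside acetylated chromatin were described in S16, a rat Schwann cell line. They were taken as the NR2F2 peaks that overlapped an RXRG peak by at least 1 bp and overlapped no peak of H3K27ac, the acetylated form of lysine 27 in histone H3 that active enhancers and promoters carry. The rule gave 1979 shared sites of 41812 NR2F2 peaks, with mitochondrial peaks dropped. The sites were chosen by these overlaps with RXRG and H3K27ac, so the counts that follow from them are given as descriptions.

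The series holds 7 rat samples. NR2F2, RXRG, YY1 and TEAD1 were mapped in untreated S16 cells by CUT&RUN, in which an antibody brings micrococcal nuclease to the protein and the nuclease releases the bound DNA. H3K27ac was mapped in untreated S16 by ChIP-seq, and SREBP1 by ChIP-seq in wild-type sciatic nerve at postnatal day 15, with an input sample that was not analysed here. Each target had 1 library, all S16 libraries came from 1 cell line, and read depth is unknown. No CUT&RUN control was analysed here, so background common to the CUT&RUN libraries and shared binding cannot be told apart. No replicate error and no test between conditions could be had. Intervals at 95% (Wilson for shares, order statistics for medians) therefore cover counting error only, and they treat neighbouring peaks as independent.

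NR2F2, also called COUP-TFII, is an orphan nuclear receptor that binds repeats of the hexamer recognised by many nuclear receptors. RXRG is a retinoid X receptor, a family that serves as the obligate partner of the retinoic acid, thyroid hormone, vitamin D and PPAR receptors on such repeats. COUP transcription factors are known to bind the same repeats and to form heterodimers with retinoid X receptors, and both proteins can repress as well as activate genes. A site outside the H3K27ac list is one at which no H3K27ac peak was called, which is not the same as chromatin free of the mark.

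The share of NR2F2 peaks that met RXRG was lower outside acetylated chromatin than inside it. Of 14460 NR2F2 peaks outside H3K27ac, 13.7% met RXRG, against 45.9% of 27352 NR2F2 peaks inside it and 34.8% of all NR2F2 peaks. From the side of RXRG, 8.15% of its 25377 peaks outside H3K27ac met NR2F2. The 1979 sites met 1971 different RXRG peaks by largest overlap, so that the pairing was close to 1 to 1. Only 28 sites met 2 RXRG peaks, and 16 shared their RXRG peak with another site. At 30 sites the RXRG peak itself reached into an H3K27ac peak that the NR2F2 peak did not touch.

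The share was lower outside H3K27ac in each of 4 classes of NR2F2 peak width. Among the narrowest NR2F2 peaks (203 to 227 bp), 9.0% met RXRG outside H3K27ac and 24.2% inside it. Among peaks of 228 to 289 bp the shares were 12.8% outside and 31.3% inside, and among those of 290 to 388 bp 15.5% outside and 40.2% inside. Among peaks of 389 to 1254 bp they were 26.0% outside and 64.2% inside. The limits of these classes are the quartiles of width of the shared sites outside H3K27ac, and wider NR2F2 peaks are in none of them.

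The sites were spread over all chromosomes. All 1979 lay on the 20 autosomes and chromosome X. The RXRG list holds no peaks on unplaced sequences, where 42 NR2F2 peaks outside H3K27ac lay. The share of NR2F2 peaks outside H3K27ac that met RXRG went from 10.5% on chromosome 14 (42 of 400) to 19.97% on chromosome 10 (123 of 616, 17.0 to 23.3%), with a median of 14.2% over the autosomes. Chromosome X had 9.88% (56 of 567, 7.68 to 12.6%). The number of RXRG peaks outside H3K27ac for each NR2F2 peak there was lowest on chromosome X, 0.977, and highest on chromosome 12, 3.33, where the share was 15.8%. Chromosomes 5 and 10 had similar numbers, 2.81 and 2.88, with shares of 11.8% on chromosome 5 and 19.97% on chromosome 10. Inside H3K27ac the share varied less, from 42.7% to 49.4% over the autosomes, with 45.1% on chromosome X. On each of the 21 chromosomes the share outside was below the share inside.

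Peaks at shared sites outside H3K27ac were narrower than at shared sites inside it and wider than at unshared peaks outside it. NR2F2 peaks were 289 bp wide at the median (283 to 294), whereas the median was 441 bp (435 to 447) at the 12559 shared sites inside H3K27ac. The 12481 NR2F2 peaks outside H3K27ac without RXRG had a median of 245 bp (243 to 247). The RXRG peaks followed the same order, with 209 bp (204 to 214) at shared sites outside H3K27ac, 289 bp (285 to 294) at shared sites inside it and 163 bp (162 to 163) at the 23309 RXRG peaks outside H3K27ac without NR2F2. None of these intervals overlaps another for the same factor. NR2F2 peaks inside H3K27ac without RXRG had a median of 295 bp (293 to 298), whose interval overlaps that of the shared sites outside H3K27ac. A wide peak has more room to meet a peak of another list, so width and sharing are not independent.

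**Figure D1:**
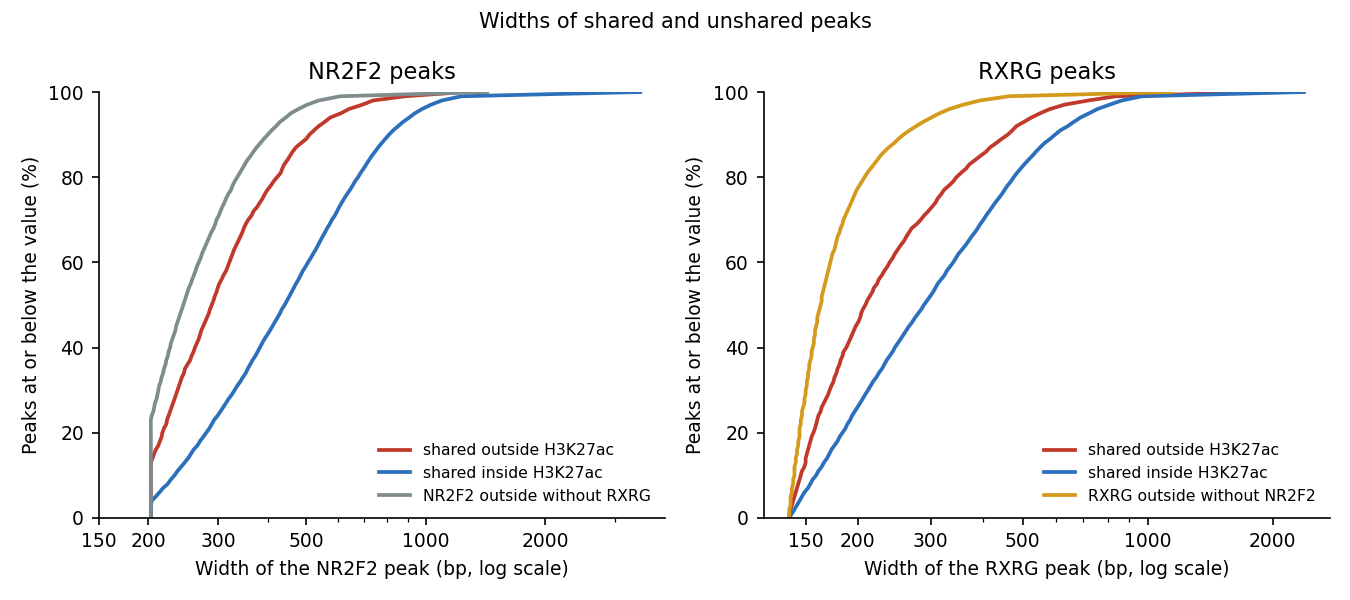
Cumulative share of peaks (%, vertical axis) by peak width (bp, log horizontal axis), for NR2F2 peaks on the left and RXRG peaks on the right. Shared sites outside H3K27ac, with medians of 289 bp for NR2F2 and 209 bp for RXRG, run between the shared sites inside H3K27ac and the unshared peaks outside it.

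Many of the peaks stood at the smallest width their list holds. The NR2F2 list begins at 203 bp, and 13.4% of the shared sites outside H3K27ac (265) had exactly that width, against 3.88% of the shared sites inside H3K27ac and 23.5% of the unshared NR2F2 peaks outside it. RXRG peaks within 10 bp of the smallest RXRG width of 137 bp made up 11.1% of the shared sites outside H3K27ac. They made up 5.10% of the shared sites inside it and 25% of the unshared RXRG peaks outside it. The widths of the paired NR2F2 and RXRG peaks were weakly related, with a Spearman rho of 0.19 over the 1979 sites outside H3K27ac and 0.32 over those inside it. Both widths come from libraries of the same cells, and the values are given as a description across sites.

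The widest NR2F2 peak among the sites was chr9:49732439-49733692 (1254 bp, build rn5), which held an RXRG peak of 149 bp 446.5 bp from its midpoint and lay 1366 bp from H3K27ac. At chr15:48406107-48407179 both peaks were wide, 1073 bp for NR2F2 and 1143 bp for RXRG. They overlapped by 1044 bp, 11500 bp from the nearest H3K27ac peak and with no other factor. The widest RXRG peak, chr16:79275036-79276919 (1884 bp), covered an NR2F2 peak of 276 bp at chr16:79275482-79275757, which stopped 22 bp short of an H3K27ac peak of 1321 bp. This RXRG peak itself reached far into that H3K27ac peak (chr16:79275780-79277100). Among sites of median NR2F2 width the one with the smallest offset was chr3:90613719-90614007 (289 bp), with an RXRG peak of 318 bp around it, midpoints 0.5 bp apart, and an H3K27ac peak 20 bp away.

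The midpoints of the peaks were about as far apart outside H3K27ac as inside it. The median distance between the NR2F2 and RXRG midpoints was 72.5 bp (67 to 76) outside H3K27ac and 78 bp (76 to 79.5) inside it. Midpoints within 50 bp of each other were found at 37.0% of the sites in both groups. Offsets of over 200 bp had a lower share outside H3K27ac, 10.9% (9.62 to 12.4%) against 15.6% (15.0 to 16.3%) inside it. The narrower peaks outside H3K27ac leave less room for an offset, since peaks of small width overlap only when their midpoints are close.

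Relative to that room the offset was larger outside H3K27ac. The offset took up 26.5% (24.8 to 28.0%) of the largest value that overlap allows, against 20.3% (19.8 to 20.8%) at shared sites inside H3K27ac. The RXRG peak lay wholly within the NR2F2 peak at 33.2% of the sites outside H3K27ac and 48.8% of those inside it, and the peaks only partly overlapped at 59.3% outside and 44.4% inside. The NR2F2 midpoint lay in the RXRG peak at 69.4% of the sites outside and 73.2% of those inside, and the RXRG midpoint in the NR2F2 peak at 81.2% outside and 88.2% inside. In NR2F2 width classes the offset was larger outside H3K27ac each time, with medians of 65.5 bp outside and 61 bp inside in the narrowest class. In the next they were 57 bp outside and 49.5 bp inside, in the third 73 bp outside and 54.5 bp inside, and in the widest 107 bp outside and 95 bp inside. RXRG peaks were also narrower outside H3K27ac in each class, for example 194 bp against 226.5 bp inside it in the narrowest class.

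**Figure D2:**
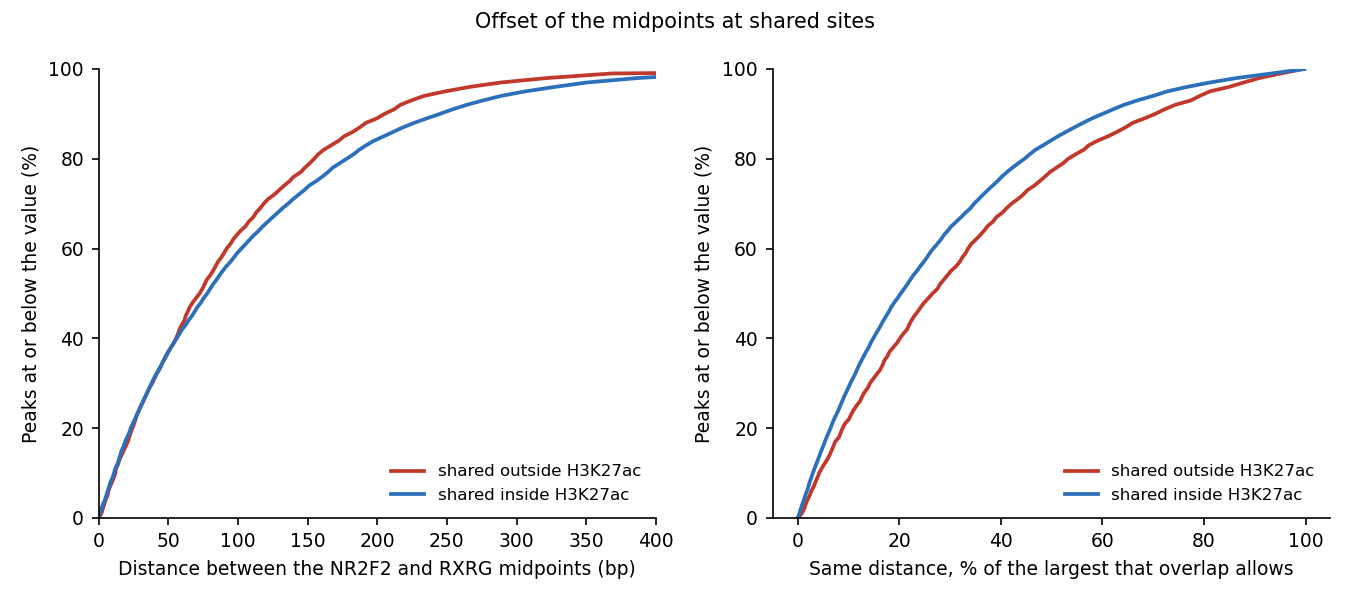
Cumulative share of shared sites (%, vertical axis) by the distance between the NR2F2 and RXRG midpoints, in bp on the left (drawn to 400 bp) and as a percentage of the largest distance that still lets the peaks overlap on the right. In bp the curves run together up to about the median (72.5 bp outside H3K27ac, 78 bp inside it), whereas on the relative scale the sites outside H3K27ac lie to the right, with medians of 26.5% outside and 20.3% inside.

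The RXRG midpoint lay about equally often towards acetylation and away from it. It lay on the side of the nearest H3K27ac peak at 50.4% (48.2 to 52.6%) of the 1978 sites outside H3K27ac with an offset above 0, and at 50.3% (46.8 to 53.7%) of the 786 of them within 5 kb of H3K27ac. At shared sites inside H3K27ac, RXRG lay from NR2F2 towards the midpoint of the H3K27ac peak at 61.0% (60.2 to 61.9%) of 12507 sites. The measures differ, since a side was taken towards the nearest H3K27ac peak outside the mark and towards the midpoint of the overlapped peak inside it. Of the 12559 shared sites inside H3K27ac, 8637 lay wholly within it, and those that reached past its edge were not set apart.

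Other transcription factors were present at few of the shared sites outside H3K27ac, and at a lower share still of the unshared NR2F2 peaks there. YY1 is a zinc finger protein needed for myelination by Schwann cells, TEAD1 the DNA-binding partner of the Hippo pathway effectors YAP and TAZ, and SREBP1 a regulator of fatty acid and cholesterol synthesis genes. Of the 1979 sites, 1679 (84.8%) met none of them, and 300 (15.2%, 13.6 to 16.8%) met at least 1. At shared sites inside H3K27ac 70.1% met at least 1, and at unshared NR2F2 peaks outside H3K27ac 7.27%.

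YY1 was present at 204 of the sites (10.3%, 9.04 to 11.7%), against 66.7% of the shared sites inside H3K27ac and 4.33% of the unshared NR2F2 peaks outside it. Over all NR2F2 peaks outside H3K27ac YY1 met 5.15%. TEAD1 was present at 169 sites (8.54%, 7.39 to 9.85%), against 41.2% of those inside H3K27ac and 4.45% of the unshared peaks, and its share over all NR2F2 peaks outside H3K27ac was 5.01%. Nerve SREBP1 was present at 27 sites (1.36%, 0.939 to 1.98%), against 18.9% of those inside H3K27ac and 0.721% of the unshared peaks, with 0.809% over all NR2F2 peaks outside H3K27ac. For each of these factors the sites outside H3K27ac lay above the unshared NR2F2 peaks and far below the acetylated shared sites.

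From the side of RXRG the contrast with unshared peaks was wider for YY1 and TEAD1. The RXRG peaks were themselves wider at shared sites, 209 bp against 163 bp at the median, and no classes of RXRG width were used. YY1 met the RXRG peak of 10.3% of the shared sites outside H3K27ac, against 0.644% of the RXRG peaks outside H3K27ac without NR2F2. For TEAD1 the values were 8.54% at shared sites and 0.270% at unshared RXRG peaks, and for SREBP1 1.16% at shared sites and 0.536% at unshared RXRG peaks. When YY1 met the NR2F2 peak it nearly always met the RXRG peak as well, 198 sites having both, and the same held for TEAD1 at 161 sites. The NR2F2 and RXRG peaks of a site overlap by the rule, so this is largely set by the choice of sites. At shared sites inside H3K27ac, YY1 met the NR2F2 peak at 8371 and both peaks at 8245.

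A wide peak also has more room to meet a factor, so the shares were taken by width class. Shared sites outside H3K27ac lay above unshared NR2F2 peaks there in all 4 classes for YY1 and in 3 of 4 for TEAD1 and SREBP1, and below shared sites inside H3K27ac in each of these classes for each of the 3 factors. For SREBP1 the intervals of shared and unshared NR2F2 peaks outside H3K27ac were apart only in the class of 228 to 289 bp, with 2.63% (1.54 to 4.45%) of the shared sites and 0.745% (0.505 to 1.10%) of the unshared peaks. In the narrowest class (203 to 227 bp) YY1 was at 3.21% of 499 shared sites outside H3K27ac, 47.6% of the shared sites inside it and 2.44% of the unshared NR2F2 peaks outside it. The intervals of the first and the last overlap (1.98 to 5.14% and 2.05 to 2.90%). TEAD1 was at 2.2% of these narrow shared sites, with 15.7% at those inside H3K27ac and 2.58% at unshared peaks. Among peaks of 290 to 388 bp, YY1 was at 13.2% of the shared sites outside H3K27ac, 59.0% of those inside and 5.53% of the unshared peaks, and TEAD1 at 11.6% of the shared sites outside H3K27ac, 30.5% of those inside and 4.49% of the unshared peaks. In the widest class the TEAD1 shares of 10.7% at shared sites and 8.89% at unshared peaks outside H3K27ac had overlapping intervals (8.30 to 13.8% and 7.51 to 10.5%).

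**Figure D3:**
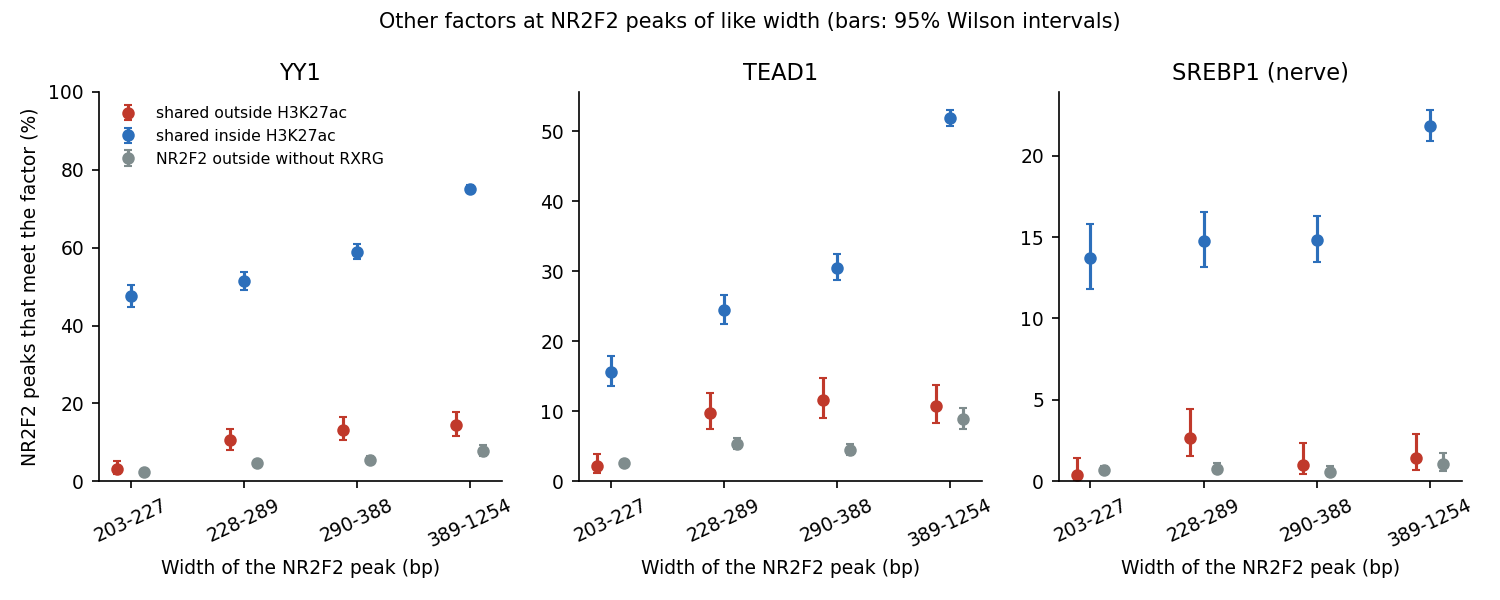
Share of NR2F2 peaks that met YY1, TEAD1 or nerve SREBP1 (%, vertical axes from 0 with a scale of their own) in 4 classes of NR2F2 peak width (bp), with 95% Wilson intervals as bars. Shared sites outside H3K27ac stay below shared sites inside it in each class, for YY1 3.21% against 47.6% in the narrowest class and 14.4% against 75.2% in the widest.

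Among the shared sites outside H3K27ac that met another factor, YY1 alone was the most frequent combination. Outside H3K27ac 114 sites (5.76%) met YY1 alone, 80 (4.04%) TEAD1 alone and 79 (3.99%) YY1 and TEAD1 without SREBP1. At unshared NR2F2 peaks outside H3K27ac these shares were 2.47%, 2.60% and 1.48%. At shared sites inside H3K27ac they were 22.8%, 3.19% and 25.2%, so the order of the combinations differed between the groups. TEAD1 came with YY1 at 51.5% (44.0 to 58.9%) of its 169 sites outside H3K27ac, against 92.2% of its 5179 shared sites inside it. At unshared NR2F2 peaks outside H3K27ac it did so at 39.9% (35.9 to 44.1%) of 556. The base rates differ, since YY1 was at 10.3% of all shared sites outside H3K27ac and 66.7% of those inside it. SREBP1 came with YY1 at 11 of 27 sites outside H3K27ac (40.7%, 24.5 to 59.3%) and at 98.4% of 2376 inside it. At unshared NR2F2 peaks outside H3K27ac the share was 53.3% (43.1 to 63.3%) of 90. YY1 peaks at the sites were narrow, with a median of 235 bp (221 to 254), against 633 bp at shared sites inside H3K27ac. This was close to the 234 bp of the 5059 YY1 peaks outside H3K27ac that met none of the sites.

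Where YY1 or TEAD1 was present its midpoint lay near that of NR2F2, which is largely set by the choice of peaks. A factor counted as present only where it overlapped the NR2F2 peak, and overlap with the RXRG peak was not required. The distances were not taken relative to the largest that overlap allows. The YY1 midpoint was a median of 41.3 bp (33.5 to 51) from the NR2F2 midpoint and 52 bp (43.5 to 70) from the RXRG midpoint at the sites outside H3K27ac. At shared sites inside H3K27ac, where peaks were wider, these distances were 73 and 90 bp. The TEAD1 midpoint was 34 bp (25 to 44.5) from that of NR2F2 outside H3K27ac and 85.5 bp inside it. SREBP1 midpoints were farther away, at 160.5 bp (93 to 320) over the 27 sites outside H3K27ac and 252 bp inside it. SREBP1 peaks all have the same width and come from nerve, not from S16.

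Of the 8 sites that met YY1, TEAD1 and SREBP1 together, the widest was chr14:95485730-95486443 (714 bp), 72712 bp from the nearest H3K27ac peak. The site chr2:67725873-67726323 (451 bp) was 908 bp from H3K27ac and chr9:7942780-7943099 (320 bp) 1768 bp. On chromosome 19 there were 3 such sites, chr19:40050872-40051158, chr19:40082829-40083106 and chr19:40181388-40181659, all on a stretch dense in NR2F2 peaks. By contrast, chr17:37641446-37641680 and chr18:51086058-51086288 had only 1 and 3 other NR2F2 peaks within 50 kb. They lay 182 and 181 bp from H3K27ac.

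The presence of YY1 and TEAD1 went with the number of NR2F2 peaks in the neighbourhood. Sites outside H3K27ac that met none of the 3 factors had a median of 2 other NR2F2 peaks within 50 kb. With 1 factor the median was 3 (3 to 4), and with 2 factors 10 (6 to 12, 84 sites). With all 3 it was 11.5, over only 8 sites and with an interval of 1 to 24. Of the sites with 0 or 1 other NR2F2 peak within 50 kb, 7.13% (5.53 to 9.15%) met YY1, and of those with 2 to 4, 6.40%. With 5 to 9 the share was 12.0% (8.41 to 16.8%) and with 10 or more 42.3% (95% lower limit 35.0%). TEAD1 went from 3.69% through 4.52% and 14.5% to 42.9% (35.6 to 50.6%) over these classes. These classes were chosen after the data were seen.

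The 163 sites with 10 or more such neighbours made up 8.24% of the shared sites outside H3K27ac but 31.7% of those with another factor (95 of 300). They were found on 19 chromosomes, with 94 of them on chromosomes 1, 7, 9 and 19. Over the classes from the sparsest to the densest the median gap to H3K27ac was 20992, 6696, 3601.5 and 2760 bp, and the part of this in the result was not tested. The median NR2F2 width was 285, 295, 291 and 289 bp over these classes, and the median RXRG width 219, 213, 208.5 and 179 bp. Shared sites inside H3K27ac had YY1 at 63.1% in the sparsest class and 69.0% in the densest. TEAD1 at these acetylated sites rose more, from 37.3% (36.0 to 38.6%) to 61.1% (58.1 to 64.0%). The unshared NR2F2 peaks outside H3K27ac had YY1 at 3.29% in the sparsest class and 19% (16.2 to 22.3%) in the densest. Their TEAD1 share was 2.80% in the sparsest class and 23.0% (19.9 to 26.5%) in the densest. Without the 163 dense sites YY1 was at 7.43% and TEAD1 at 5.45% of the rest, so that the overall TEAD1 share of 8.54% is over 1.5 times its value elsewhere.

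**Figure D4:**
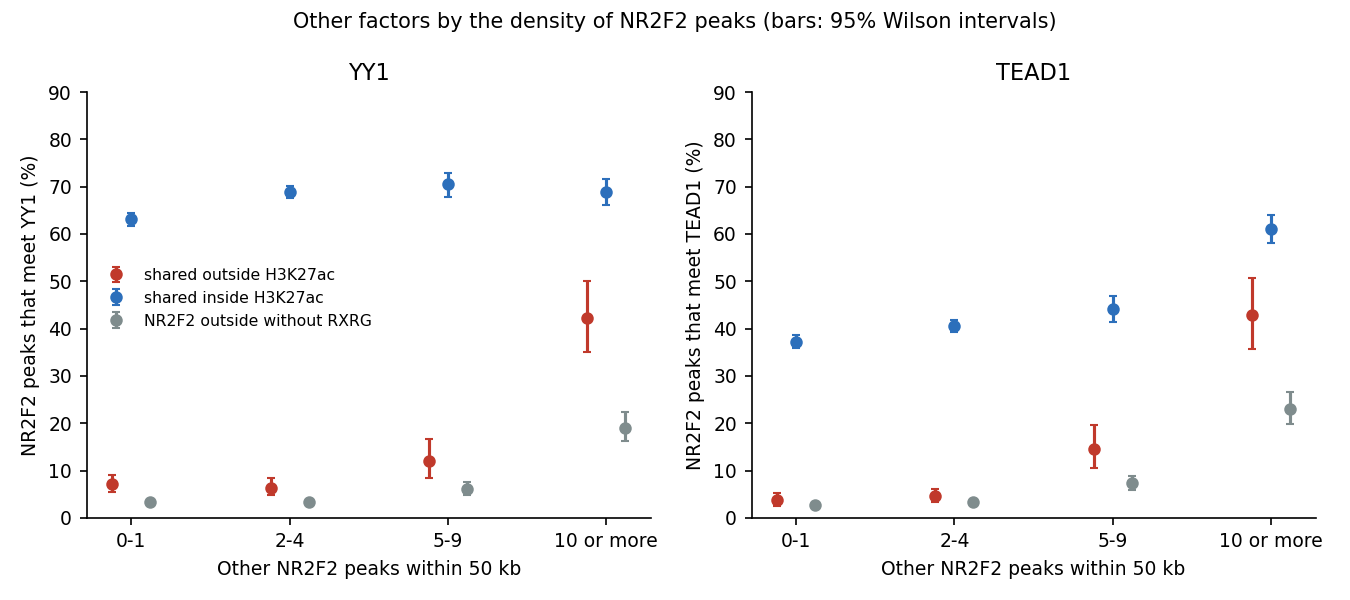
Share of NR2F2 peaks that met YY1 (left) or TEAD1 (right), in %, by the number of other NR2F2 peaks with a midpoint within 50 kb, with 95% Wilson intervals as bars. At shared sites outside H3K27ac the YY1 share is 7.13% in the sparsest and 42.3% in the densest class, at shared sites inside H3K27ac it is 63.1% and 69.0%, and at unshared NR2F2 peaks outside it 3.29% and 19%.

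The densest group of sites was on chromosome 19. The sites chr19:40181388-40181659 and chr19:40212113-40212573 each had 4 other shared sites outside H3K27ac within 50 kb, the highest number found. The window around the first also held 14 H3K27ac peaks. A smaller group lay around chr1:56390151-56390377, with 3 other such sites. Another shared site outside H3K27ac lay within 50 kb of 20.2% (18.5 to 22.0%) of these sites, against 13.0% (12.4 to 13.6%) of the shared sites inside H3K27ac and 13.3% (12.7 to 13.9%) of the unshared NR2F2 peaks outside it. Within 10 kb the shares were 7.33% of the shared sites outside H3K27ac, 3.22% of those inside it and 3.50% of the unshared NR2F2 peaks. The other 1580 sites (79.8%) had none within 50 kb. An acetylated shared site lay within 50 kb of 45.2% (43.0 to 47.4%) of all 1979 shared sites outside H3K27ac. The shares were 49.2% for the shared sites inside H3K27ac, counting other sites only, and 40.7% for the unshared NR2F2 peaks outside it.

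Shared sites outside H3K27ac had a larger share of peaks within 2 kb and within 5 kb of acetylated chromatin than unshared NR2F2 peaks. Their shares within 5 kb and within 10 kb were smaller than those of unshared RXRG peaks. Between shared sites and unshared NR2F2 peaks the intervals of the shares within 1 kb and within 10 kb overlapped, as did those of the median gaps. The median gap between the NR2F2 peak and the nearest H3K27ac peak was 7757 bp (7009 to 8822), against 8965 bp (8606 to 9372) for unshared NR2F2 peaks outside H3K27ac. The lower quartile of the gap was 2441.5 bp at the shared sites and 3141 bp at the unshared NR2F2 peaks. Unshared RXRG peaks outside H3K27ac were 6846 bp away (6647 to 7073). Shared sites inside H3K27ac had their nearest further H3K27ac peak at 8353 bp. Of the shared sites outside H3K27ac, 11.4% lay within 1 kb of H3K27ac, 39.7% (37.6 to 41.9%) within 5 kb and 54.9% within 10 kb. For unshared NR2F2 peaks these shares were 10.5%, 34.6% (33.8 to 35.5%) and 52.1%. Within 2 kb they were 20.9% (19.2 to 22.8%) at shared sites and 18.1% (17.4 to 18.7%) at unshared NR2F2 peaks. Unshared RXRG peaks outside H3K27ac had 21.9% (21.3 to 22.4%) within 2 kb and 42.8% (42.2 to 43.4%) within 5 kb. Within 10 kb they had 58.3% (57.6 to 58.9%), against an interval of 52.7 to 57.1% at the shared sites. Gaps of 5000 to 5499 bp, just past the 5 kb limit, were in excess at the unshared NR2F2 peaks, as given under other observations. Gaps of 100 kb or more were found at 89 shared sites outside H3K27ac (4.50%), and at 5.93% of the unshared NR2F2 peaks. The number of H3K27ac peaks within 100 kb had a median of 8 (7 to 9) at the shared sites outside H3K27ac, 10 at those inside it with the overlapped peaks left out, 6 (6 to 6) at unshared NR2F2 peaks and 9 at unshared RXRG peaks.

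Few sites sat in a gap of an acetylated region. An H3K27ac peak within 2 kb on each side was found at 36 sites (1.82%, 1.32 to 2.51%), against 1.33% (1.14 to 1.55%) of the unshared NR2F2 peaks and 1.38% of the unshared RXRG peaks outside H3K27ac. With 5 kb on each side there were 186 such sites (9.40%, 8.19 to 10.76%). At that distance unshared NR2F2 peaks had 7.61% (7.16 to 8.09%). Unshared RXRG peaks had 11.04% (10.64 to 11.45%), whose interval overlaps that of the shared sites. With 1 kb there were 10 shared sites (0.505%), against 0.481% of the unshared NR2F2 peaks and 0.305% of the unshared RXRG peaks, with overlapping intervals. The nearest H3K27ac peak was 573 bp wide at the median (547 to 617), close to the 576 bp (565 to 587) for unshared NR2F2 peaks. For unshared RXRG peaks it was 670 bp wide (661 to 683). The H3K27ac peaks overlapped by shared sites had 949 bp and all H3K27ac peaks 737 bp. The H3K27ac peak nearest a shared site held an NR2F2 peak in 39% (36.9 to 41.2%) of cases. The share was 41.1% for unshared NR2F2 peaks, 27.8% for unshared RXRG peaks and 25.5% of all H3K27ac peaks. It held RXRG in 30.4% (28.4 to 32.5%) of cases, against 29.0% for unshared NR2F2 peaks, 22.1% for unshared RXRG peaks and 20.5% of all H3K27ac peaks.

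The share of sites with another factor was highest close to acetylation. Of the shared sites less than 1 kb from H3K27ac, 22.7% (17.7 to 28.6%) met YY1, TEAD1 or SREBP1, and the share went through 18.5% at 1 to 5 kb, 13.8% at 5 to 20 kb and 10.9% at 20 to 100 kb to 8.99% (4.63 to 16.7%) beyond 100 kb, where 8 of 89 sites met another factor. Unshared NR2F2 peaks followed the same course at a lower level, from 15.2% below 1 kb to 4.32% beyond 100 kb. TEAD1 at the shared sites went from 13.8% (9.88 to 18.9%) to 2.25% (2 of 89 sites, 0.618 to 7.83%). YY1 went from 15.1% (11 to 20.4%) to 7.87% (3.86 to 15.4%), with overlapping intervals. The median NR2F2 width stayed between 275 and 299 bp over these distances. The share of NR2F2 peaks outside H3K27ac that met RXRG was 14.6% (12.96 to 16.5%) below 1 kb and 15.7% at 1 to 5 kb. It was 12.6% at 5 to 20 kb, 13.4% at 20 to 100 kb and 10.7% (8.81 to 13.03%) beyond 100 kb. The intervals of the first and the last class overlap.

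**Figure D5:**
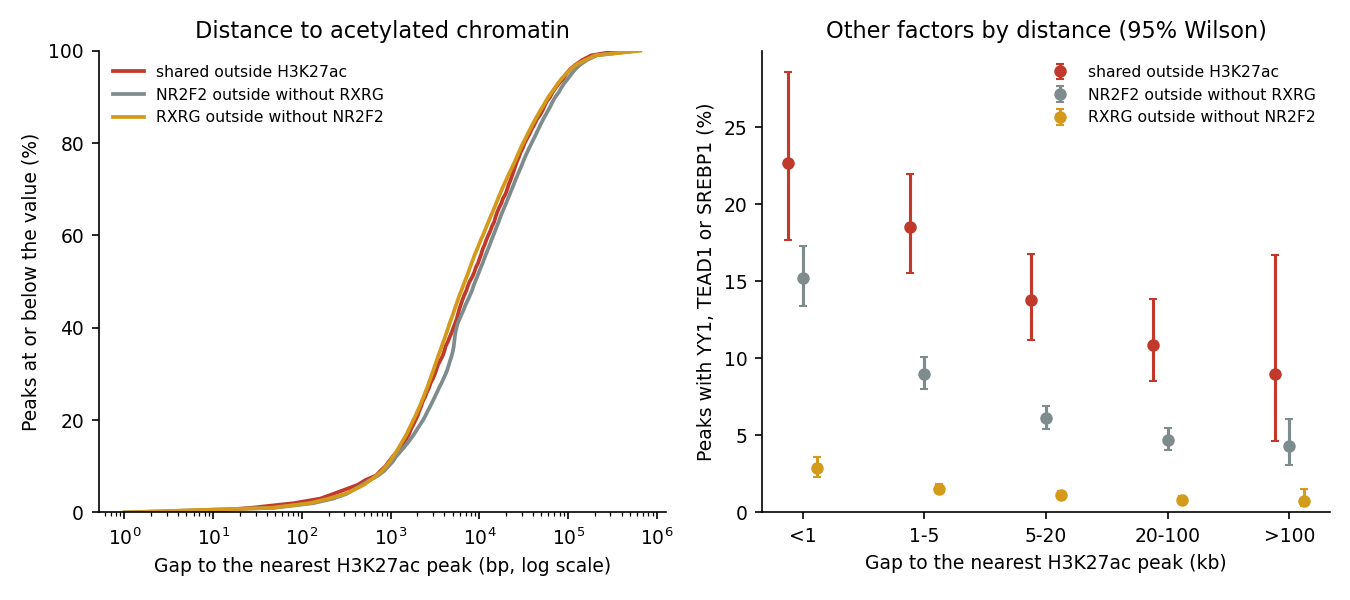
Left, cumulative share of peaks (%) by the gap to the nearest H3K27ac peak (bp, log scale, gaps under 1 bp drawn at 1); right, share of peaks (%) that met YY1, TEAD1 or SREBP1 by the same gap in kb, with 95% Wilson intervals as bars. Shared sites outside H3K27ac, with a median gap of 7757 bp, run between the unshared NR2F2 peaks (8965 bp) and the unshared RXRG peaks (6846 bp) around the median, and the share with another factor at shared sites is 22.7% below 1 kb and 8.99% beyond 100 kb.

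The sites farthest from acetylation were chr6:149312634-149312890 (257 bp, 375639 bp from the nearest H3K27ac peak), chr16:18119072-18119333 (262 bp, 325796 bp) and chr13:51094271-51094596 (326 bp, 311701 bp). None of these met YY1, TEAD1 or SREBP1. At the second the RXRG peak had the smallest width of its list, 137 bp, and the midpoints were 6.5 bp apart.

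The limits of the rule touched few sites. Overlaps of 1 to 10 bp with RXRG made up 18 of the 1979 sites, and overlaps of 11 to 50 bp 105. Just outside the rule, 22 unshared NR2F2 peaks outside H3K27ac were less than 10 bp from an RXRG peak and 79 less than 50 bp. The nearest of the sites to H3K27ac was 6 bp away and 42 lay within 100 bp. On the other side of that limit, 93 of the 12559 shared sites inside H3K27ac had no more than 100 bp in the mark, and 8637 lay wholly within it.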

How the data were processed

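The authors deposited peak lists as chromosome, start and end, 1 library per target. The deposited score of the SREBP1 list is the same in every peak and was not used. The submitters' processing notes name build rn5 and, without roles, MACS2, Bowtie2, deepTools, bedtools and bcl2fastq 2.20.0.422. Thresholds, controls and depth are not stated in these sources. The 6 lists were compared with Python 3.11.15, pandas 2.3.3, NumPy 2.4.6 and SciPy 1.17.1, after dropping mitochondrial peaks. Of several RXRG peaks the one with the largest overlap was taken. Other factors were counted when they overlapped the NR2F2 peak by at least 1 bp. Gaps run from edge to edge. Coordinates are rn5, counted from 1. No rn5 genome or annotation was used, so that motif shares and nearest genes, planned on that condition, were not run and peaks are named by position. Named are the widest peaks, sites with all factors, the farthest from H3K27ac, the densest, and the smallest offset at median NR2F2 width. The sites and comparisons were chosen with earlier results of these data known, and the width, distance and density classes after the peaks were seen. No test was made. The interval code was checked on simulated lists.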

Additional observations from a re-analysis of the deposited data

Results flagged for a closer look

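Mitochondrial peaks were dropped by the rule. Of the 13 mitochondrial NR2F2 peaks 12 met RXRG, and 9 of these met no H3K27ac peak. These 9 are given because they lie outside the data used in the comparisons, and the overlaps that define them are those of the rule. Among the 12, 8 also met YY1 and 6 TEAD1, and the H3K27ac list holds 2 mitochondrial peaks. The 13 mitochondrial NR2F2 peaks had a median width of 347 bp, against 289 bp at the shared sites outside H3K27ac on the other chromosomes.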

How the results depend on the processing

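The 10 results were recomputed under 13 other settings and 2 more chosen after the data were seen, the omission of chromosomes 7, 9 and 19 and of NR2F2 peaks with 10 or more others within 50 kb. Of 111 values, 80 stayed within the interval of the original (for the number of sites, within 1.5 times) and 31 moved. Requiring 50% of the shorter peak gave a share with RXRG of 11.8%, an NR2F2 width of 296 bp and an offset of 60 bp. Requiring the NR2F2 midpoint inside the RXRG peak gave 9.5%, 280 bp, an RXRG width of 229 bp, an offset of 46 bp and YY1 at 11.7%, the smaller offsets following from the rule. Extending H3K27ac by 500 bp gave a median gap of 9279 bp and 0.978% of sites between H3K27ac peaks. Extending it by 5 kb left 1193 sites, a share with RXRG of 12.8%, YY1 at 8.72%, TEAD1 at 6.12%, SREBP1 at 0.838%, a gap of 20513 bp and, by construction, 0% of sites between H3K27ac peaks. Keeping only peaks wider than the median of their lists left 608 sites, with widths of 417.5 bp for NR2F2 and 306.5 bp for RXRG, an offset of 83.3 bp, YY1 at 14.1%, TEAD1 at 11.2% and 0.987% of sites between H3K27ac peaks. An overlap of 50% of the shorter peak with the other factor gave SREBP1 at 0.910%. Sites between H3K27ac peaks were 0.505% within 1 kb and 9.40% within 5 kb. Leaving out the dense NR2F2 peaks gave YY1 at 7.43%, TEAD1 at 5.45%, a gap of 9086 bp and 1.10% of sites between H3K27ac peaks. The 4 remaining settings run for all 10 results, namely RXRG also outside H3K27ac, placed chromosomes, the widest 1% left out and chromosomes 7, 9 and 19 left out, moved none of the 10 results, and neither did looking in the RXRG peak or in a fixed window move the factor shares. Where a value moved for no reason of construction, the cause was not tested. No paired analysis was possible because each target has 1 sample. What read depth limits could not be assessed from peak positions.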

Other observations

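Unshared NR2F2 peaks outside H3K27ac had an excess of gaps of 5000 to 5499 bp to the nearest H3K27ac peak that the shared sites outside H3K27ac did not have. Such gaps were found at 2.12% (1.57 to 2.86%) of the shared sites and at 5.12% (4.75 to 5.52%) of the unshared NR2F2 peaks. In the 500 bp below, the shares were 2.43% of the shared sites and 2.91% of the unshared peaks, and in the 500 bp above 2.63% of the shared sites and 2.11% of the unshared peaks. Unshared RXRG peaks outside H3K27ac, with 2.25% at 5000 to 5499 bp, showed no such excess.

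Distances between midpoints were also looked at from 4000 to 6999 bp. Another NR2F2 midpoint lay 5000 to 5999 bp away at 8.69% (7.53 to 10.0%) of the shared sites outside H3K27ac, 12.4% (11.8 to 13.0%) of the shared sites inside it and 9.89% (9.38 to 10.4%) of the unshared NR2F2 peaks outside it. At 4000 to 4999 bp the shares were 4.60% of the shared sites outside H3K27ac, 4.40% of those inside it and 3.81% of the unshared peaks. At 6000 to 6999 bp they were 7.78% (6.68 to 9.05%) of the shared sites outside H3K27ac, whose interval overlaps that at 5000 to 5999 bp, 7.70% of those inside it and 6.48% of the unshared peaks. An RXRG midpoint lay 4000 to 4999, 5000 to 5999 and 6000 to 6999 bp from 4.35%, 8.26% and 5.62% of the unshared NR2F2 peaks outside H3K27ac, and an H3K27ac midpoint from 8.28%, 13.0% and 9.09% of them. Unshared RXRG peaks outside H3K27ac had an NR2F2 midpoint at 5000 to 5999 bp in 4.12% of cases. These distances were looked at after the distribution of gaps was seen, and no annotation of repeats was used here.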
